A study of Mus musculus with 12 samples.

Results

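The mRNAs of 9 scavenger receptors were followed in mouse peritoneal macrophages: Marco, Msr1, Cd36, Scarb1, Olr1, Mrc1, Stab1, Stab2 and Cd163. The members were taken by gene symbol, and all 9 were found among the 16920 genes counted. Macrophages had been elicited in WT and Ythdf1-/- mice by intraperitoneal starch broth as the series record has it (the study's methods name thioglycollate), collected after 3 days, cultured overnight and then exposed for 6 hours to PBS or to LPS at 1 μg/mL. RNA from 3 independent samples per group was sequenced, so that 12 libraries fell into the groups WT PBS, WT LPS, KO PBS and KO LPS. The mice were C57BL/6 animals, the knockout was present in every cell type of the body, and YTHDF1 is a cytoplasmic reader of m6A-marked mRNA. All 4 groups shared the elicitation and the overnight culture, so none of them stands for macrophages as they lie in an untreated peritoneum.

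Scavenger receptors are surface proteins, unrelated in structure, that bind modified lipoproteins, microbial surface polymers, apoptotic cells and spent glycans, and carry them into the cell. Class A receptors (Marco, Msr1) are trimers with a collagen-like stalk, class B receptors (Cd36, Scarb1) cross the membrane at both ends and handle fatty acids and lipoproteins, and class E (Olr1) is a C-type lectin-like receptor of oxidised LDL. The mannose receptor Mrc1 clears glycoproteins, the stabilins are large receptors best known from sinusoidal endothelium and tissue macrophages, and Cd163 takes up haptoglobin-haemoglobin complexes. In macrophages their levels are widely used to describe the activation state.

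Totals ran from 21546274 to 22017005 expected counts per library, so 3 counts, taken as the detection floor, corresponded to 0.105 to 0.187 CPM, the count after scaling every library to a common size. Levels below are CPM on TMM-scaled library sizes, and tests are edgeR's quasi-likelihood test over all 12 libraries with Benjamini-Hochberg adjustment over the 12064 genes that passed the count filter, the 9 members among them. Stab2 and Cd163 passed it at low counts, through their PBS libraries, where they were highest. The filter thus selected for their falls with LPS. Ythdf1 mRNA itself was not lower in the KO-labelled libraries: it lay at 41.9 to 45.0 CPM in WT PBS and 55.4 to 58.1 CPM in KO PBS, and at 194 to 212 CPM in WT LPS and 192 to 205 CPM in KO LPS. A gene-level count cannot show whether a stretch of the transcript was deleted, so the genotype comparisons rest on the labels. The 1st WT LPS library stood apart, with a mean chi-square per gene of 31.4 and 24.4 against the other WT LPS libraries, where other pairs within a group gave 2.75 to 15.9; results for members that turn on it are given without it. General macrophage markers, most of whose level is Lyz2, summed to between 15727 and 17638 CPM in every library. By the test 4 of the 10 were lower and 0 higher in KO-labelled cells, in PBS and again in LPS. Of all genes tested, 13% were lower and 12.3% higher in PBS, and 19.3% lower and 22.1% higher in LPS. The complement gene C1qa, for example, averaged 286 CPM in untreated WT cells against 140 CPM in untreated KO-labelled cells. The part of this in the genotype differences below was not tested.

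LPS moved the members in opposite directions. In WT macrophages, Olr1, Msr1 and Marco rose 13.8-fold, 3.73-fold and 3.25-fold, while Scarb1, Stab2, Cd163, Mrc1 and Cd36 fell, and these 3 rose in KO-labelled macrophages too, by 16.6-fold, 6.52-fold and 8.73-fold. The adjusted p passed 0.05 for 8 of 9 members in WT, where 76.7% of all genes tested did so, and for 8 of 9 in the KO-labelled groups, where 79.9% did. The libraries of the LPS and PBS groups did not overlap for 8 members in WT (78.2% of all genes) and for 7 in KO (81.3%). Counts of members that moved were thus near the background, and what set the members apart from each other was direction and size. The counts include Stab2, and in WT also Cd163, which passed the filter through their PBS libraries. With a change beyond 1 log2 unit also asked for, 6 members passed in WT (36.4% of all genes) and 5 in KO (41.7%). The adjusted p passed for 4404 genes higher (36.5%) and 4850 lower (40.2%) in WT, and for 38.8% higher and 41.1% lower in KO, beside 3 members higher and 5 lower in each.

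**Figure D1:**
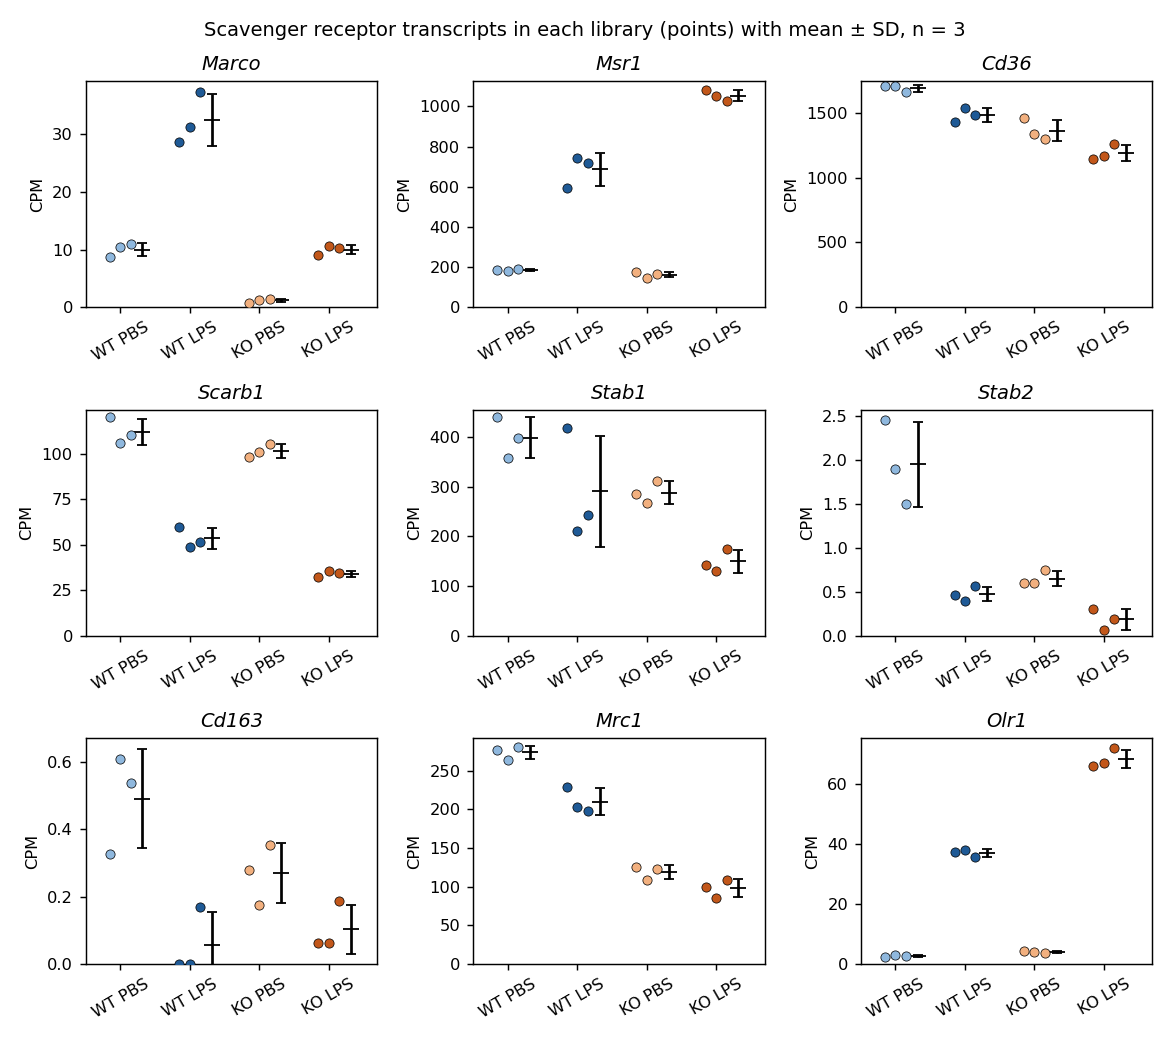
Level of each scavenger receptor in CPM in the 12 libraries, by group. Points are libraries, and the group means of 3 are marked. Olr1, Msr1 and Marco sit higher in both LPS groups than in the PBS group of the same genotype, Scarb1 lower, and Mrc1 and Marco are lower in the KO-labelled groups.

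Genotype was the other axis. At rest, KO-labelled macrophages held less Marco (8.74-fold), Stab2 (3.01-fold), Mrc1 (2.30-fold) and Cd36 (1.24-fold) and more Olr1 (1.54-fold) than WT. That made 5 of 9 members past the adjusted p in PBS, where 25.3% of all genes passed, 1 of them higher (12.3%) and 4 lower (13%). After LPS 8 of 9 passed, where 41.4% of all genes did: Msr1 and Olr1 were higher (22.1%) and Marco, Cd36, Scarb1, Stab1, Stab2 and Mrc1 lower (19.3%). Groups did not overlap for 8 members in PBS (48.1% of all genes) and 8 in LPS (45.6%). Changes beyond 1 log2 unit were found for 3 members in PBS (3.31%) and 3 in LPS (4.72%). The LPS response itself differed with genotype for 3 members, Marco, Msr1 and Scarb1, where the interaction passed for 18% of all genes. It was positive for Marco and Msr1 (9.78% of all genes), negative for Scarb1 (8.26%), and beyond 1 log2 unit for Marco alone (2.69%). In these bulk samples, fewer cells of a type and less RNA per cell cannot be told apart.

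Marco, a class A receptor with a bacteria-binding scavenger domain, lies at chr1:120474538-120505024 on the minus strand (GRCm38) in 17 exons. It stood at 8.64, 10.4 and 10.9 CPM in WT PBS and at 28.6, 31.3 and 37.5 CPM in WT LPS. In the KO-labelled groups it stood at 0.770, 1.26 and 1.38 CPM in PBS (22, 36 and 39 counts) and at 9.02, 10.6 and 10.3 CPM in LPS. Thus every KO PBS library was below every other library, and the LPS-treated KO-labelled cells overlapped untreated WT cells. LPS raised Marco by 1.70 ± 0.12 on the log2 scale (SE; adjusted p = 7.95e-10) in WT and by 3.13 ± 0.19 (adjusted p = 1.07e-10) in KO-labelled cells. The difference between these responses was 1.43 ± 0.23 (95% confidence interval 0.93 to 1.92; adjusted p = 0.000566). Between genotypes Marco fell by 3.13 ± 0.18 log2 units in PBS (adjusted p = 7.54e-09) and by 1.70 ± 0.13 in LPS (adjusted p = 6.16e-08). The PBS difference was exceeded in size by 0.157% of the genes tested, and the difference in LPS by 1.67%. From the lowest group to the highest, Marco spanned 28.5-fold, the widest range of the 9.

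Promoters of the members were read from RefSeq's table for GRCm38.p6, which held 7 of the 9 (not Msr1 or Scarb1). The 250 bases before the start site are printed for Marco, the member with the largest genotype difference, and for Mrc1, the most abundant of the members whose level fell more than 1 log2 unit between genotypes. For Olr1, the member with the largest LPS response, 30 bases are printed that hold its matches. The Marco window is chr1:120505025-120505274 on the minus strand, the Mrc1 window chr2:14229164-14229413 on the plus strand, and the Olr1 stretch chr6:129507216-129507245 on the minus strand, from 80 to 51 bases before the table's start, which itself lies 185 bases inside the RefSeq gene. Capitals mark matches on either strand to a PU.1 core (GAGGAA, or TTCCTC read on the other strand) or an AP-1 site (TGANTCA).
Marco promoter: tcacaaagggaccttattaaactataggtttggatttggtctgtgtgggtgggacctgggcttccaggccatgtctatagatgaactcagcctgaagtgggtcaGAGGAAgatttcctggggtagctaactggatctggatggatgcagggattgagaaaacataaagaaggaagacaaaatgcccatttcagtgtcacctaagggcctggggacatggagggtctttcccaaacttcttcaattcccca
Mrc1 promoter: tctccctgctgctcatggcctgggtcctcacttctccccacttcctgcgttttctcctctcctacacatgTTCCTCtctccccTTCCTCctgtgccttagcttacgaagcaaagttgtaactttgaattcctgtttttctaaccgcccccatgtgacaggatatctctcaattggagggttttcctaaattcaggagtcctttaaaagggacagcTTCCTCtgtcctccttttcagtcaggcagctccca
Olr1 promoter stretch: tcctTTCCTCccgcgacggtTGAGTCAtcc
The PU.1 core was found in 4 of the 7 member promoters, those of Marco, Mrc1, Olr1 and Stab1, and in 23.3% of all 32851 promoters of the table. It occurred 3 times in the Mrc1 window and once in that of Marco. The AP-1 letters occurred in 1 member promoter, that of Olr1, and in 6.75% of all promoters. MAF letters (TGCTGA) occurred in 2, those of Cd36 and Stab1, and in 16.1% of all promoters. Letters for NRF2, PPAR, LXR, CRE and TATA sites were looked for too, and 0 member windows held them. No member window held the NF-kappaB consensus (7.25% of all promoters) or the interferon-stimulated response element (2.98%), which says only that these letters are not within 250 bases of these starts. The table's Cd36 start lies inside the gene, and the bases after it were not found in the Cd36 transcript used for the check, so its window may not be the promoter in use.

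Msr1, the class A receptor SR-A that takes up acetylated LDL (chr8:39543232-39642750, minus strand), was the abundant member with the largest rise. Its levels were 183, 179 and 190 CPM in WT PBS and 594, 744 and 720 CPM in WT LPS. In KO-labelled cells they were 173, 145 and 167 CPM in PBS and 1080, 1054 and 1028 CPM in LPS. No pair of groups overlapped, and KO LPS was highest. The LPS change was 1.90 ± 0.082 log2 units in WT (adjusted p = 1.19e-12) and 2.70 ± 0.085 in KO-labelled cells (adjusted p = 1.23e-14), a difference of 0.80 ± 0.11 (95% confidence interval 0.56 to 1.04; adjusted p = 0.000157). After LPS, Msr1 was higher in KO-labelled cells by 0.62 ± 0.080 log2 units (adjusted p = 1.60e-05). In PBS the genotype difference was -0.18 ± 0.080 (adjusted p = 0.107) and did not pass. It did so without the 1st WT LPS library, which enters the shared estimate of spread (-0.18, adjusted p = 0.0154), and in a fit of the PBS libraries alone (-0.19, adjusted p = 0.00698).

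The pair of class A receptors thus differed in genotype. Marco was lower in KO-labelled cells at either treatment, whereas Msr1 was higher after LPS, although both rose with LPS and both rose further on the log2 scale in KO-labelled cells. The LPS group means of Marco were 32.4 CPM in WT and 9.98 CPM in KO, and those of Msr1 686 CPM and 1054 CPM.

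**Figure D2:**
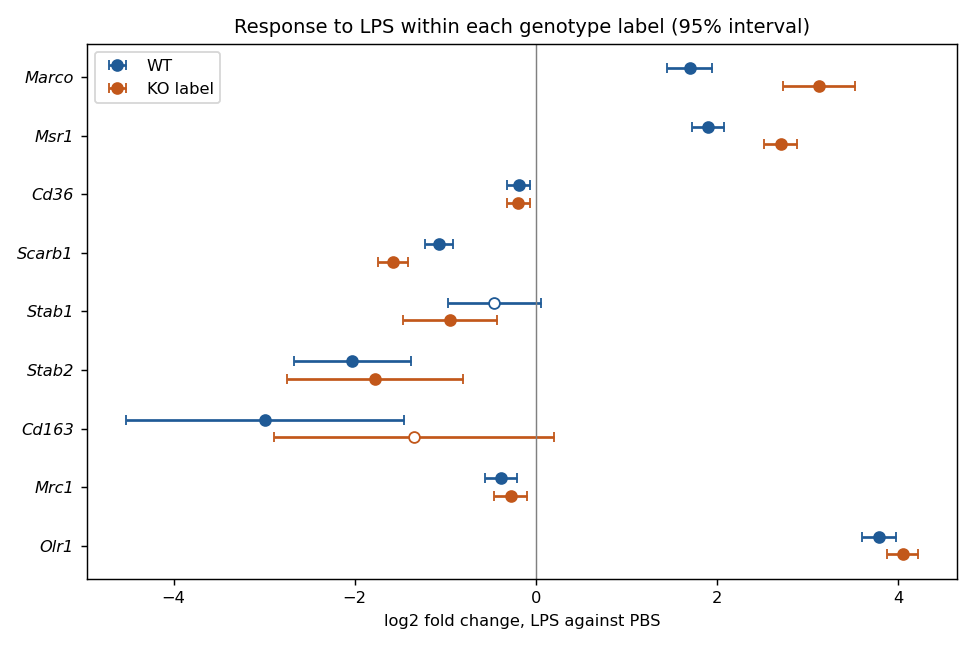
Log2 fold change of LPS against PBS for each member in WT and in KO-labelled macrophages; points are edgeR estimates and bars their 95% confidence intervals. Olr1, Msr1 and Marco lie to the right of 0 in both genotypes, and Marco and Msr1 lie further right in KO. The WT LPS level of Cd163 is at the detection floor, so its fitted value is no bound.

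Olr1 (LOX-1, the lectin-like receptor of oxidised LDL; chr6:129479150-129507350, minus strand) went from a few CPM to at least 35.6 CPM with LPS. It lay at 2.46, 2.90 and 2.64 CPM in WT PBS and at 37.2, 38.0 and 35.6 CPM in WT LPS. The KO-labelled libraries held 4.41, 4.14 and 3.79 CPM in PBS and 66.0, 67.1 and 71.8 CPM in LPS. All 4 groups were separate, and KO was the higher of the genotypes at each treatment. LPS changed it by 3.79 ± 0.087 log2 units in WT (adjusted p = 2.30e-16) and by 4.05 ± 0.079 in KO (adjusted p = 2.80e-17). KO-labelled cells held more by 0.62 ± 0.11 log2 units in PBS (adjusted p = 0.000493) and by 0.89 ± 0.065 in LPS (adjusted p = 5.41e-08). The difference between the LPS responses, 0.26 ± 0.13 (95% confidence interval -0.0062 to 0.53; adjusted p = 0.174), did not pass. Olr1 and Marco both rose with LPS, yet their genotype differences had opposite signs in PBS and in LPS.

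Cd36, the class B receptor of long-chain fatty acids and oxidised LDL (chr5:17781690-17888959, minus strand), was the most abundant member. It measured 1705, 1703 and 1658 CPM in WT PBS and 1426, 1536 and 1479 CPM in WT LPS. It measured 1457, 1334 and 1297 CPM in KO PBS and 1145, 1168 and 1261 CPM in KO LPS. WT LPS overlapped KO PBS, and the other neighbours in order of level did not overlap. LPS lowered Cd36 by the same small amount in each genotype, -0.19 ± 0.059 log2 units in WT (adjusted p = 0.00804) and -0.19 ± 0.059 in KO (adjusted p = 0.00674), and the difference between responses was -0.0039 ± 0.084 (95% confidence interval -0.18 to 0.17; adjusted p = 0.985). The WT change did not pass without the 1st WT PBS library (-0.16, adjusted p = 0.0544). Between genotypes Cd36 fell by 0.31 ± 0.059 log2 units in PBS (adjusted p = 0.00122) and by 0.31 ± 0.059 in LPS (adjusted p = 0.000525).

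How far Cd36 fell with LPS depended on the scaling. With library totals alone in place of TMM, its LPS change was -0.85 in WT and -0.996 in KO-labelled cells. That scaling moved the median of all genes by -0.66 in WT and -0.80 in KO, so relative to the median gene the change was as small as before. The directions of all members with LPS were kept under each scaling tried.

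Scarb1 (SR-BI, the HDL receptor that takes up cholesteryl esters; chr5:125277087-125341094, minus strand) was the other class B member and fell further. It stood at 120, 106 and 110 CPM in WT PBS and at 59.8, 48.9 and 51.6 CPM in WT LPS. It stood at 97.9, 101 and 105 CPM in KO PBS and at 32.1, 35.4 and 34.1 CPM in KO LPS. All 4 groups were separate, lowest in KO LPS. The LPS change was -1.07 ± 0.075 log2 units in WT (adjusted p = 9.67e-10) and -1.58 ± 0.078 in KO (adjusted p = 6.47e-12), and the difference of -0.51 ± 0.11 (95% confidence interval -0.74 to -0.28) passed with an adjusted p of 0.00372. In LPS the genotype difference was -0.66 ± 0.080 (adjusted p = 9.71e-06). In PBS it was -0.14 ± 0.072 (adjusted p = 0.164), and -0.14 without the 1st WT LPS library (adjusted p = 0.0470).

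**Figure D3:**
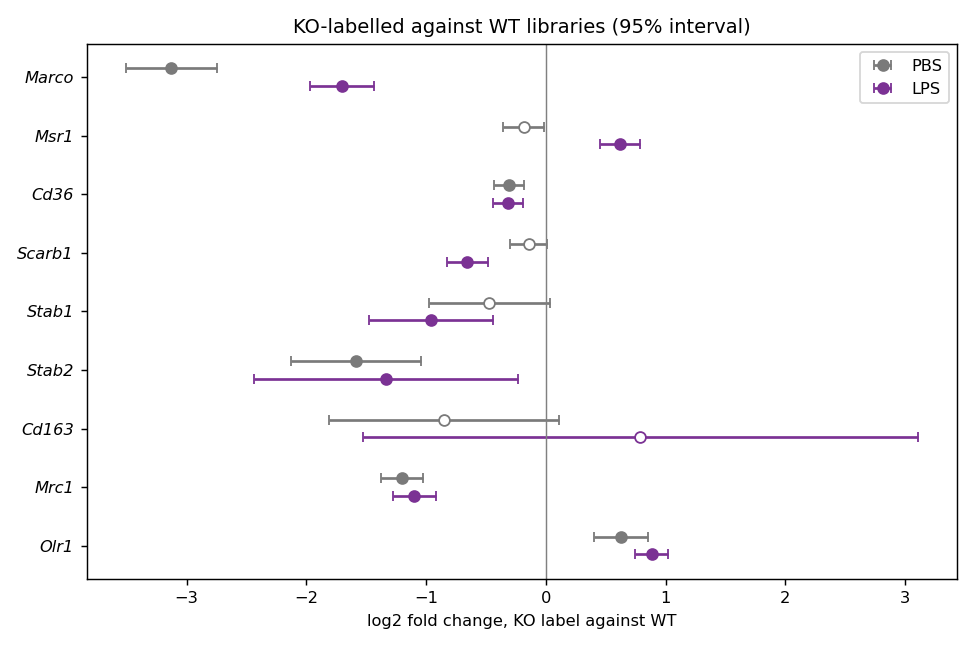
Log2 difference between KO-labelled and WT macrophages for each member in PBS and in LPS; points are edgeR estimates and bars their 95% confidence intervals. Marco, Mrc1, Stab2 and Cd36 lie below 0 at both treatments and Olr1 above 0, whereas Msr1 lies above 0 in LPS. Cd163 in LPS is at the detection floor in both groups.

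Mrc1, the mannose receptor CD206 and a usual marker of alternative activation (chr2:14229414-14332023, plus strand, 30 exons), was lower in KO-labelled cells at both treatments. Its levels were 276, 263 and 280 CPM in WT PBS and 229, 203 and 197 CPM in WT LPS. They were 125, 109 and 122 CPM in KO PBS and 99.0, 85.6 and 109 CPM in KO LPS. Every WT library exceeded every KO-labelled library, while the KO-labelled PBS and LPS groups overlapped. Mrc1 fell by 1.20 ± 0.083 log2 units between genotypes in PBS (adjusted p = 5.49e-08) and by 1.10 ± 0.085 in LPS (adjusted p = 8.45e-08). With LPS it fell by 0.38 ± 0.082 in WT (adjusted p = 0.000481) and by 0.28 ± 0.084 in KO (adjusted p = 0.00622), and the difference between these, 0.10 ± 0.12 (95% confidence interval -0.15 to 0.35; adjusted p = 0.617), did not pass. With library totals alone the LPS changes were -1.05 in WT and -1.08 in KO, near in size to the genotype differences under that scaling (-1.15 in PBS and -1.19 in LPS). The fall in PBS was exceeded in size by 2.83% of the genes tested.

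Stab1, a receptor of SPARC and of modified LDL found on alternatively activated macrophages, is a gene of 69 exons at chr14:31139017-31168651 (minus strand). Levels were 440, 359 and 399 CPM in WT PBS and 419, 211 and 244 CPM in WT LPS. They were 285, 267 and 312 CPM in KO PBS and 143, 131 and 175 CPM in KO LPS. The 1st WT LPS library lay among the WT PBS libraries and above the other WT LPS libraries, whereas KO LPS lay below all other groups. In KO-labelled cells Stab1 fell with LPS by 0.94 ± 0.23 log2 units (adjusted p = 0.00356). In WT the change was -0.46 ± 0.23 (adjusted p = 0.0927), and it was -0.81 (adjusted p = 0.000329) without the 1st WT LPS library. It also passed with upper-quartile scaling (-0.77, adjusted p = 0.00663), library totals alone (-1.12, adjusted p = 0.000648) and a minimum of 10 counts in every library (-0.49, adjusted p = 0.0325). The genotype difference was -0.96 ± 0.23 in LPS (adjusted p = 0.00820), and -0.60 without that library (adjusted p = 0.00557). In PBS it was -0.47 ± 0.23 (adjusted p = 0.167), and -0.47 without the 1st WT LPS library (adjusted p = 0.0128). The interaction, -0.49 ± 0.32 (95% confidence interval -1.21 to 0.24; adjusted p = 0.355), did not pass, and it was -0.13 without the 1st WT LPS library (adjusted p = 0.665).

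Stab2, the hyaluronan receptor of liver and spleen sinusoids (chr10:86841194-87008038, minus strand), was near the lower limit of detection. It had 68, 53 and 42 counts in WT PBS and 8, 7 and 10 counts in WT LPS. It had 17, 17 and 21 counts in KO PBS and 5, 1 and 3 counts in KO LPS, where 2 of 3 libraries were at or under the floor. On the CPM scale no pair of groups overlapped. The gene passed the count filter through its PBS libraries, where it was highest. Stab2 fell with LPS by 2.02 ± 0.30 log2 units in WT (adjusted p = 1.26e-05) and by 1.77 ± 0.46 in KO (adjusted p = 0.00200). From the summed counts the PBS to LPS ratio was 4.10 in WT (95% interval 2.68 to 6.52) and 3.49 in KO (1.71 to 8.03), intervals that cover counting error only. Between genotypes it fell by 1.59 ± 0.26 in PBS (adjusted p = 0.000302). In LPS the difference was -1.34 ± 0.52 with an adjusted p of 0.0498, which 13 of the alternatives did not keep under 0.05, the removal of the 1st WT LPS library among them (adjusted p = 0.0752). Over the 12 removals of a library its value ran from -1.90 to -0.93. The interaction was 0.25 ± 0.67 (adjusted p = 0.853).

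Cd163 (chr6:124304636-124330529, plus strand) was the rarest member, and its summed counts in the 12 libraries came to 72.95 expected counts. WT PBS held 9.14, 17 and 15.12 expected counts and KO PBS 8.06, 5.06 and 10.43. WT LPS held 0, 0 and 3.04 and KO LPS 1.03, 1.05 and 3.02, so the LPS libraries were at or about the floor. WT LPS and WT PBS did not overlap, and the WT change passed (adjusted p = 0.00132). Cd163 passed the count filter only through PBS libraries, so the filter selected for a fall of this kind. The size of the WT change is given as the ratio of summed counts, 8.60 for PBS over LPS (95% interval 2.74 to 43.4). In KO the ratio was 2.63 (0.977 to 8.85; adjusted p = 0.101). The genotype difference in PBS, -0.85 ± 0.45 log2 units (adjusted p = 0.191), did not pass, and in LPS no fold is given because both groups were at or under the floor.

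Levels of different genes were compared per kb of exonic length from GENCODE M21. Cd36 ranked first in every group, at 478 CPM per kb in WT PBS, 419 in WT LPS, 385 in KO PBS and 337 in KO LPS. Behind it the order changed with LPS in WT. In WT PBS, Mrc1 (50.9), Stab1 (49.9), Msr1 (45.9) and Scarb1 (44.4 CPM per kb) lay close together, whereas in WT LPS Msr1 came next after Cd36, at 171 CPM per kb. In KO-labelled cells Msr1 already held that place in PBS (40.4 CPM per kb, beside 40.2 for Scarb1 and 36.0 for Stab1) and kept it in LPS at 263 CPM per kb. The Msr1 share of the summed per-kb level of the 9 receptors went from 6.79% to 24.0% in WT and from 7.67% to 39.0% in KO, while the Cd36 share went from 70.8% to 58.6% and from 73.3% to 49.9%. Olr1 held 0.111% in WT PBS and 2.83% in KO LPS, where it ranked behind Cd36 and Msr1.

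**Figure D4:**
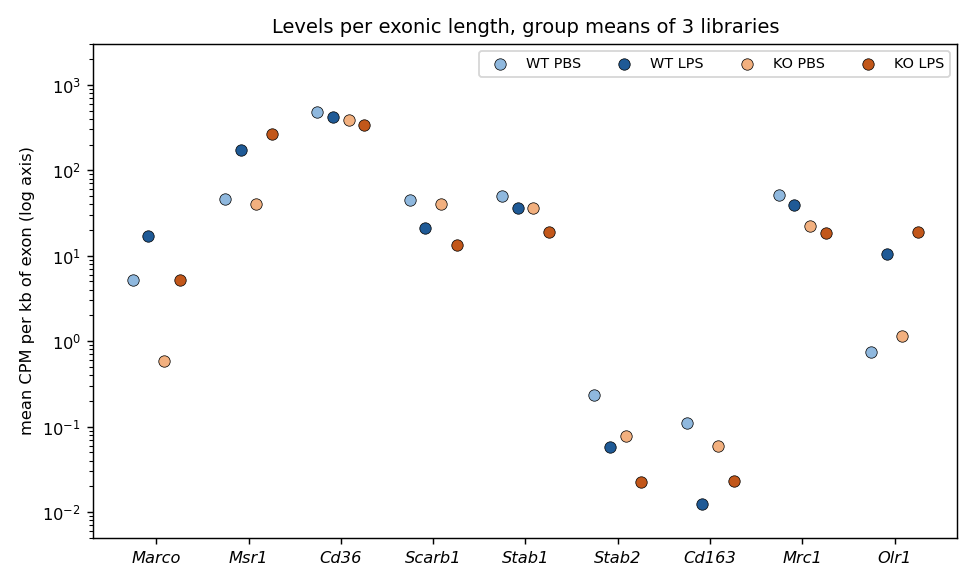
Mean level of each member per kb of exonic length (CPM per kb) in the 4 groups. Cd36 is the highest in every group, and Msr1 goes from 45.9 to 171 CPM per kb in WT and from 40.4 to 263 CPM per kb in KO with LPS.

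Summed over the 9 genes in CPM, without regard to length, the receptors came to 2672 ± 58.9 CPM (SD, n = 3) in WT PBS, 2791 ± 23.2 in WT LPS, 2039 ± 94.4 in KO PBS and 2605 ± 74.6 in KO LPS. Without Cd36 the sums were 983 ± 56.1, 1311 ± 50.1, 676 ± 43.6 and 1414 ± 26.4 CPM, and Msr1 was the main part of the LPS sums.

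Other scavenger receptors were measured from a list of 20 further genes, of which 19 were in the files and 13 passed the filter. With LPS, 8 rose and 1 fell in WT, and 6 rose and 2 fell in KO-labelled cells. Of all genes 36.5% rose and 40.2% fell in WT, and 38.8% and 41.1% in KO. The list's median log2 change was 0.26 in WT and 0.0011 in KO, beside -0.05 and -0.04 for all genes, and with library totals alone these list medians were -0.40 and -0.79, beside -0.71 and -0.84 for all genes. The counts moved with the scaling too: with library totals alone 5 were higher and 7 lower in WT and likewise in KO, and with upper-quartile scaling 5 and 3 in WT and 5 and 6 in KO. Cxcl16 (SR-PSOX, a receptor of oxidised LDL that is also a chemokine) rose from 46.8 ± 1.97 to 494 ± 21.6 CPM (SD, n = 3) in WT and from 24.3 ± 3.94 to 556 ± 9.11 CPM in KO-labelled cells, a log2 change of 3.40 and 4.51. Scarf1, a class F receptor, rose by 3.41 (adjusted p = 1.76e-14) and 3.64 (adjusted p = 7.22e-15), and the hyaluronan receptor Cd44 by 1.97 (adjusted p = 3.72e-15) and 2.41 (adjusted p = 2.75e-16). Colec12 (SR-CL) was the gene that fell in WT, by 0.66 (adjusted p = 0.000243). Without the 1st WT LPS library 8 rose and 2 fell of 14 in WT. Lrp1 joined Colec12 there (-0.97, adjusted p = 0.00133, against -0.54, adjusted p = 0.0996, with that library). Between genotypes, 0 of the 13 were higher and 1 lower in PBS, namely Cxcl16 at -0.95 (adjusted p = 1.35e-06), and 2 were higher and 2 lower in LPS.

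The transcription factors known to act on scavenger receptor genes moved in both directions, as did genes at large. Of 15 on the list, 8 rose and 7 fell with LPS in WT, where 36.5% of all genes rose and 40.2% fell. In KO 7 rose and 7 fell, beside 38.8% and 41.1% of all genes. Pparg, the lipid-activated inducer of Cd36, fell from 68.1 ± 2.88 to 7.80 ± 0.283 CPM in WT and from 80.9 ± 4.62 to 6.69 ± 1.04 CPM in KO-labelled cells, log2 changes of -3.13 (adjusted p = 3.50e-15) and -3.59 (adjusted p = 7.07e-16). Cd36 itself changed by -0.19 in each. Tfeb, a regulator of lysosomal genes, changed by -3.62 and -4.13, and Bhlhe40, a repressor, by -3.59 and -2.87. Rising genes were Maf (2.13 in WT and 2.04 in KO), the myeloid factor Spi1, which encodes PU.1 (1.63 and 1.54), and the glucocorticoid receptor Nr3c1 (1.21 and 1.72). Between genotypes, 4 of the 15 were higher and 0 lower in PBS, and 5 were higher and 3 lower in LPS. Spi1 did not differ between genotypes by the test in PBS (0.01, adjusted p = 0.897) or LPS (-0.08, adjusted p = 0.255). A link between the mRNA level or activity of a listed factor and the level of a member was not tested.

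Of 20 partners, sheddases and downstream genes, 19 were tested, and 11 rose and 7 fell with LPS in each genotype. Of all genes 36.5% rose and 40.2% fell in WT, and 38.8% and 41.1% in KO. Tlr2, which works with Cd36 and Tlr6 in lipid sensing, rose from 31.5 ± 0.810 to 648 ± 52.9 CPM in WT and from 31.7 ± 2.02 to 1198 ± 34.4 CPM in KO. Tlr6 rose by 1.51 (adjusted p = 3.21e-12) and 1.26 (adjusted p = 3.00e-11), and the kinase Lyn, which couples to Cd36, by 2.62 and 2.74. Genes that handle fatty acids and cholesterol went both ways. Those that fell included the fatty acid carrier Fabp4 (-2.38 and -2.70), Soat1, which esterifies cholesterol (-1.70 and -2.09), and Npc1, which exports it from lysosomes (-1.16 and -1.48). Npc2, the soluble partner of Npc1, rose (0.92 and 1.25), as did the cholesterol exporter Abca1 (0.56 and 2.25), whose WT value turned to -0.11 with library totals alone. Abcg1, another exporter, rose in WT (0.40, but -0.26 with library totals alone) and fell in KO-labelled cells (-0.66). Between genotypes, 6 of the 19 were higher and 4 lower in PBS, and 5 were higher and 6 lower in LPS.

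The alternative activation genes, like genes at large, gave no single direction with LPS. Of 11 tested, 6 rose and 4 fell in WT, where 36.5% of all genes rose and 40.2% fell. In KO 6 rose and 3 fell, beside 38.8% and 41.1% of all genes. Among those that fell, Clec10a, a galactose-type lectin, changed by -1.55 and -2.38, Tgfbi by -1.98 and -1.84 and F13a1 by -0.72 and -0.99. Il4ra rose by 2.21 and 2.70 and Ccl24 by 1.65 and 2.30. Chil3 changed by 0.22 (adjusted p = 0.0495) and 0.34 (adjusted p = 0.00364). Without the 1st WT LPS library its WT change was 0.36 (adjusted p = 9.99e-06). The sign of Chil3 turned with upper-quartile scaling (-0.086 and -0.013) and with library totals alone (-0.44 and -0.46). In KO-labelled cells 2 were higher and 6 lower in PBS, and 3 were higher and 5 lower in LPS. At both treatments Chil3 was higher in KO-labelled cells (0.81 and 0.93 log2 units), while Retnla (-1.97 and -1.62), Mgl2 (-1.23 and -0.92), Ccl24 (-1.15 and -0.50) and Clec10a (-0.26 and -1.09) were lower, as Mrc1 was. Retnla and Mgl2 were named here after their values were seen.

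Receptors and bridging proteins for apoptotic cells also went both ways with LPS. Of 13 tested, 5 rose and 5 fell in WT, where 36.5% of all genes rose and 40.2% fell. In KO 4 rose and 5 fell, beside 38.8% and 41.1% of all genes. Axl rose by 3.92 and 4.19. Mertk rose in WT by 1.29 log2 units (adjusted p = 1.45e-11) to a mean of 233 CPM, but stood at 97.9 ± 0.950 and 98.3 ± 9.76 CPM in KO PBS and KO LPS (0.0059, adjusted p = 0.938), a value whose sign turned with upper-quartile scaling or library totals. The bridging ligand Gas6 fell (-1.62 and -2.34), as did the integrin subunits Itgb5 (-1.22 and -1.97) and Itgb3 (-2.18 and -2.06). Timd4, a receptor of phosphatidylserine, stood at 0.419 CPM in WT PBS, 6.64 in WT LPS, 0.106 in KO PBS and 1.44 in KO LPS. In KO-labelled cells 2 of the 13 were higher and 6 lower in PBS, and 3 were higher and 6 lower in LPS. The LPS counts of these last 4 lists also moved with the scaling. With library totals alone, the numbers higher and lower in WT were 5 and 8 for the regulators, 7 and 11 for the partners, 4 and 5 for the alternative activation genes and 4 and 8 for the apoptotic cell receptors, and in KO they were 4 and 9, 7 and 11, 3 and 5, and 3 and 9. Between genotypes, where 12.3% of all genes were higher and 13% lower in PBS and 22.1% and 19.3% in LPS, counts moved as well. The regulators had 6 higher and 0 lower in PBS with RLE or library totals, and 5 and 6 in LPS with library totals. The partners had 3 and 4 in PBS with upper-quartile scaling, and 3 and 7 in LPS with library totals. The other scavenger receptors had 1 and 4 in LPS with upper-quartile scaling or library totals, and the apoptotic cell receptors 2 and 4 in PBS with library totals. Without the 1st WT LPS library, a check of the lists added after the data were seen, 1 call of a list gene was lost over the 5 comparisons, that of Abca1 between genotypes in LPS (-0.34, adjusted p = 0.0469, against -0.21, adjusted p = 0.225, without it), 15 were gained and 0 called values changed sign. The other scavenger receptors then had 3 of 14 lower between genotypes in PBS in place of 1 of 13.

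Markers of other cells were set beside these results. Between genotypes 12.3% of all genes were higher and 13% lower in PBS, and 22.1% and 19.3% in LPS. With LPS 36.5% of all genes were higher and 40.2% lower in WT, and 38.8% and 41.1% in KO. Of the fibroblast markers, 4 of 5 were tested and all 4 were lower in KO-labelled cells at both treatments. Their summed level was 66.4 to 80.1 CPM in WT PBS and 29.3 to 40.9 CPM in KO PBS, and 108 to 119 CPM in WT LPS and 49.8 to 62.2 CPM in KO LPS, with Lum at or near 0. They thus moved with genotype as Marco and Mrc1 did, and their part in those differences was not tested. Of the endothelial markers, which bear on the stabilins, Tek, Lyve1 and Egfl7 were at or near 0 in all groups, and the list's summed level, mostly Kdr (11.8 CPM in WT PBS and 59.2 in WT LPS), was higher in LPS, where the stabilins were lower or did not pass. In PBS that sum was 11.9 to 13.9 CPM in WT and 20.3 to 21.5 CPM in KO, with 1 of 3 genes tested higher and 0 lower. Adipocyte markers, which bear on Cd36, summed to at most 0.122 CPM. The platelet list, which also bears on Cd36, summed to 103 to 113 CPM in WT PBS and 76.7 to 83.4 CPM in KO PBS, and to 117 to 156 CPM in WT LPS and 88.9 to 112 CPM in KO LPS. Nearly all of this was Pf4, the 1 platelet gene tested, which was lower in KO-labelled cells by the test at both treatments, and Ppbp, Itga2b, Gp9, Gp1ba and Treml1 had group means at or below 0.352 CPM. Monocyte-derived macrophage markers, mostly Fn1, summed to 880 to 1072 CPM in WT PBS and 695 to 784 CPM in KO PBS, with 2 of 6 tested lower and 0 higher, and to 1243 to 2204 CPM in WT LPS and 1080 to 1404 CPM in KO LPS, with 1 lower and 1 higher. The part of these lists in the genotype differences was not tested. Resident peritoneal macrophage markers summed to 21.5 to 23.8 CPM in WT PBS, 24.2 to 25.3 in WT LPS, 20.6 to 22.5 in KO PBS and 14.3 to 16.3 in KO LPS. Of 6 tested, 1 was higher and 3 lower in KO-labelled cells in PBS (median log2 difference -0.57), and 0 higher and 3 lower in LPS. Mesothelial markers summed to 7.58 to 8.47 CPM in WT PBS, 3.76 to 5.92 in KO PBS, 8.12 to 9.17 in WT LPS and 6.37 to 7.52 in KO LPS, and of 6 tested 2 were lower in PBS, 1 lower in LPS and 0 higher in KO-labelled cells. Neutrophil markers summed to 1.63 to 1.68 CPM in WT PBS, 2.34 to 2.67 in KO PBS, 4.28 to 4.91 in WT LPS and 5.63 to 6.69 in KO LPS. This was mostly Cxcr2, with Mpo and Elane at or near 0, and the 1 gene tested was higher with LPS in each genotype and higher in KO-labelled cells at each treatment, as Olr1 was. B cell markers summed to at most 1.92 CPM and T cell markers to at most 2.93 CPM, and 1 gene of each list was lower with LPS in both genotypes while 0 differed between genotypes by the test. Of 2 eosinophil markers tested, 1 was lower in KO-labelled cells in LPS, and mast cell markers summed to at most 0.228 CPM. The part of these lists too was not tested. Without the 1st WT LPS library, the monocyte-derived markers of the other WT LPS libraries summed to 1243 to 1455 CPM. In LPS between genotypes the numbers higher and lower were then 1 and 2 of 7 for that list, 1 and 5 of 10 for the general macrophage markers, 1 and 0 of 3 for the endothelial and 0 and 0 of 2 for the neutrophil markers.

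**Figure D5:**
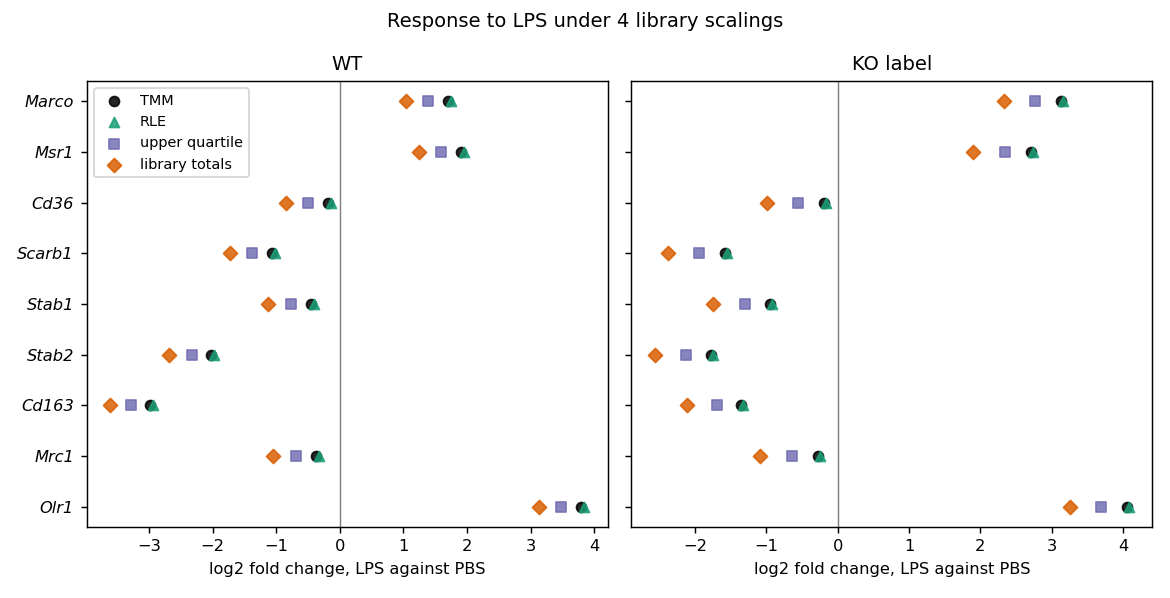
Log2 fold change of LPS against PBS for each member under TMM, RLE, upper-quartile scaling and library totals alone, in WT and KO-labelled macrophages. Every member keeps its side of 0, and with library totals alone all values lie lower, as the median of all genes did (by 0.66 in WT and 0.80 in KO).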

How the data were processed

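RNA of mouse peritoneal macrophages was sequenced as single-end 50-base reads on a BGISEQ-500, with 3 libraries in each of 4 groups. The deposited values are expected counts per gene, 1 file per library, which the authors made without scaling between libraries. The submitters' processing notes name Bowtie2, RSEM 1.3.1 and GRCm38.p6, whereas the methods of the study name other tools for its RNA-seq, and whether strand was used is not given in the sources used here. The series record gives starch broth as the eliciting agent and the methods of the study name thioglycollate, and which of them was used could not be settled here. Between 24.6% and 26.9% of values had decimals, the mark of reads shared between genes. Among members, Stab1 (12 libraries, at most 0.0314% of its count), Cd163 (9) and Olr1 (1) had any.

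Expected counts were rounded and analysed in R 4.3.3 with edgeR 4.0.16 (TMM, filterByExpr, robust quasi-likelihood fit of 4 group means to all 12 libraries, Benjamini-Hochberg adjustment over 12064 genes, threshold 0.05, 5 contrasts including the interaction of genotype with LPS). Members are given in every library. From each gene list, up to 3 genes per direction with the largest LPS change in WT were named among those past the threshold with at least 5 CPM in the higher group, and any list gene whose interaction passed could be named as well. The members and lists were chosen with earlier results of these data known. Both LPS contrasts and both genotype contrasts share groups, so they are not independent of each other. The script was tested on simulated counts. Alternatives were RLE, upper-quartile and total-count scaling, other filters, DESeq2 1.42.0, unrounded counts, fits of only the libraries compared, a replicate block, a change beyond 1 log2 unit, and removal of each library. The removal of the 1st WT LPS library for the gene and marker lists, and the scaling of list gene interactions gene by gene, were added after seeing the data. All p-values come from the model across genes, since an exact permutation test of 3 against 3 libraries cannot go below 0.1.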

Additional observations from a re-analysis of the deposited data

Results flagged for a closer look

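The LPS response was compared between WT and KO-labelled macrophages for the 9 members and all 71 list genes tested, by edgeR's interaction term, with the sign given as the KO response less the WT response. It passed for 3 members and for 27 list genes (38%), where 18% of all genes passed, and the lists were chosen with earlier results of these data known. Among the members these were Marco (1.43), Msr1 (0.80) and Scarb1 (-0.51). Among the other scavenger receptors they were Cxcl16 (1.11), Cd44 (0.44) and Cd68 (-0.27). Among the regulators the response was higher in KO for Tfec (1.25), Bhlhe40 (0.71), Nr3c1 (0.50) and Nfe2l2 (0.26), and lower for Rxra (-0.54), Tfeb (-0.52), Pparg (-0.47), Klf4 (-0.38) and Nr1h3 (-0.29). Among the partners and downstream genes it was higher for Abca1 (1.69), Tlr2 (0.88), Hmox1 (0.65) and Npc2 (0.32), and lower for Abcg1 (-1.06), Fabp5 (-0.44), Soat1 (-0.39) and Adam10 (-0.33). The alternative activation genes were Ccl24 (0.64), Il4ra (0.50) and Clec10a (-0.83), and the apoptotic cell receptors and ligands Cd300lf (0.36), Mertk (-1.29), Itgb5 (-0.75) and Gas6 (-0.73). Of the genes with a positive interaction, Marco, Cxcl16, Abca1, Npc2, Il4ra and Ccl24 were lower in KO-labelled cells in PBS by the test, while Bhlhe40 and Nr3c1 were higher. All 27 calls of list genes and the 3 of members held with RLE scaling. With upper-quartile scaling the positive calls of Nfe2l2, Npc2, Ccl24 and Cd300lf were lost (0.22, 0.28, 0.60 and 0.31), as they were with library totals alone (0.13, 0.19, 0.51 and 0.22), while the other 23 and the 3 members passed with the same sign under both. The list genes that passed were thus 13 higher and 14 lower with TMM, 9 and 17 with upper-quartile scaling and 9 and 25 with library totals, where 17.9% and 21.3% of all genes passed under the latter pair. Without the 1st WT LPS library 0 of the 27 calls were lost and 4 were gained. Sizes could shift. The WT response of Rxra, for example, was -1.94 with that library and -2.13 without it, beside -2.48 in KO.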

How the results depend on the processing

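Of 922 member values under the alternatives, 888 kept their direction and side of the threshold, 14 lost the call (Stab2 in LPS between genotypes 13 times, Cd36 once), 13 gained it and 7 turned sign, each of the 7 an interaction that did not pass. These were Mrc1 with library totals alone (-0.035), Stab2 without the 1st KO LPS library (-0.31), and Cd36 without the 3rd WT PBS (0.0098), 2nd WT LPS (0.023), 1st KO PBS (0.016), 1st KO LPS (0.024) or 2nd KO LPS library (0.012). Without 1 library the Cd36 interaction ran from -0.063 to 0.024 and that of Stab2 from -0.31 to 0.66. With a change beyond 1 log2 unit as well, 5 members passed for LPS in KO, 3 between genotypes in PBS, 3 in LPS and 1 in the interaction. In a fit of only the PBS libraries, 8 members passed between genotypes (Msr1, Scarb1 and Stab1 joined) and 4627 genes (39.7%) in place of 3058 (25.3%). Removing each library in turn gave 7 to 9 members for LPS in WT (73% to 76.4% of all genes), 8 to 8 in KO (76.1% to 80.7%), 5 to 8 between genotypes in PBS (16.3% to 31.8%, and 8 members beside 31.8% without the 1st WT LPS library), 7 to 8 in LPS (33.6% to 41%) and 3 to 3 in the interaction (12.7% to 21.9%). Without the 1st KO PBS library 1992 genes (16.3%) passed between genotypes in PBS. Cd163 for LPS in KO passed with upper-quartile scaling (-1.69, adjusted p = 0.0381) and library totals (-2.11, adjusted p = 0.0101). With a minimum of 10 counts in every library Stab2 and Cd163 were not tested. Same-numbered libraries did not deviate together (correlations -0.0612 to 0.110), and with the replicate number as a block 9, 8, 5, 7 and 3 members passed in the 5 contrasts (76.8%, 79.8%, 24.6%, 41.7% and 17.7% of all genes), Stab1 joining for LPS in WT (adjusted p = 0.0429). With library totals alone the share of called genes that were higher went from 47.6% to 21.2% for LPS in WT, from 48.6% to 20.8% in KO, from 48.6% to 61.6% between genotypes in PBS, from 53.4% to 37.9% in LPS and from 54.2% to 24.4% in the interaction. With upper-quartile scaling it was 32.5%, 33.8%, 42.2%, 41.6% and 43.1%, and the median of all genes moved by -0.31 for LPS in WT and -0.36 in KO. With totals the median of the interaction moved by -0.14. The cause of these differences was not tested. Depth limits Stab2 and Cd163, whose LPS groups held 0 to 10 counts per library.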

Other observations

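Over the 12 libraries, 8716 genes of at least 5 CPM on average were compared with each member by log2 CPM. The closest were Npy for Marco (r = 0.980), Tpm4 for Msr1 (r = 0.998), Maoa for Cd36 (r = 0.966), Fads1 for Scarb1 (r = 0.997), Klf6 for Olr1 (r = 0.999), Gatm for Mrc1 (r = 0.985), Mroh1 for Stab1 (r = 0.995), Cdkn1c for Stab2 (r = 0.948) and Nolc1 for Cd163 (r = 0.909). The libraries share 4 group means, so such a correlation mostly restates the order of the groups. Mfge8, a bridging protein for apoptotic cells, was the next closest to Mrc1 (r = 0.982).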
